A study of Homo sapiens with 8 samples.

Results

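The SOX genes encode transcription factors that share a DNA-binding domain, the HMG box, with the sex-determining factor SRY. Counts were taken for 10 SOX genes of neural crest, glia and neurons out of 60659 genes in the count table, namely SOX2 (ENSG00000181449), SOX4 (ENSG00000124766), SOX5 (ENSG00000134532), SOX6 (ENSG00000110693), SOX8 (ENSG00000005513), SOX9 (ENSG00000125398), SOX10 (ENSG00000100146), SOX11 (ENSG00000176887), SOX12 (ENSG00000177732) and SOX13 (ENSG00000143842). They were chosen by symbol, by matching the gene identifiers of the table to GENCODE, and all 10 were found. Ribosomal RNA was removed and the remaining RNA sequenced from SK-N-SH, an established human neuroblastoma cell line, in 4 groups of 2 libraries. Cells in each group were treated with all-trans retinoic acid (ATRA), a vitamin A derivative that drives neuroblastoma cells toward neurons, at 10 µM for 24 h. Parental cells with doxycycline (Dox) were the control for cells with Dox and ectopic ZMYND8, a reader of histone marks, here called ZMYND8 overexpression. The labels give FLAG with this ZMYND8. According to the methods, it was carried by the lentiviral vector pInducer20, known for its Dox-inducible promoter, and cells were selected for it, so that the vector and its selection separate the groups as well as ZMYND8. The KD control cells were the control for ZMYND8 knockdown cells, and the labels give no Dox for either. The methods describe short hairpin RNA delivered by lentivirus for knockdown, but which vector these KD control and knockdown cells carry, and whether they were selected, is not given in the sources used here.

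HMG boxes bind in the minor groove of DNA and bend it, and SOX proteins usually act with partner factors on nearby sites. The family is divided into groups by sequence. SOX2 of group B1 keeps neural progenitors undifferentiated, the group C factors SOX4, SOX11 and SOX12 are active in immature neurons and neuroblasts, the group D factors SOX5, SOX6 and SOX13 have no activation domain of their own and modulate other SOX factors, and the group E factors SOX8, SOX9 and SOX10 act in the neural crest, glia and, for SOX9, cartilage.

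Counts on genes totalled 38316523 to 56256979 per library. ZMYND8 had 3089 and 3612 counts in parental cells and 220691 and 182849 with overexpression. It had 3128 and 3374 counts in KD control cells and 1641 and 1640 with knockdown, a log2 fold change of -0.94 (standard error, SE, 0.056), so that about 52.2% of the control level remained. The sympathetic neuroblast marker HAND2 was present in parental cells at 111 to 112 CPM. CPM is the share of a library's reads on a gene, in parts of 1e6, scaled by TMM, a normalization that sets the bulk of genes equal between libraries.

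The HMG boxes of group E are shown because SOX8 and SOX9 of this group moved in opposite directions below, and because reads of such similar stretches could be confused. For each gene, 237 bases that encode 79 codons of the box are given 5′ to 3′ on the coding strand, taken from GENCODE transcripts on GRCh38. Capitals mark the bases that are not the same in all 3 genes. The boxes are each split over 2 exons and were joined, from chr16:982223-983842 for SOX8 and chr17:72121701-72122833 for SOX9 on the plus strand and chr22:37978021-37983478 for SOX10 on the minus strand.
SOX8: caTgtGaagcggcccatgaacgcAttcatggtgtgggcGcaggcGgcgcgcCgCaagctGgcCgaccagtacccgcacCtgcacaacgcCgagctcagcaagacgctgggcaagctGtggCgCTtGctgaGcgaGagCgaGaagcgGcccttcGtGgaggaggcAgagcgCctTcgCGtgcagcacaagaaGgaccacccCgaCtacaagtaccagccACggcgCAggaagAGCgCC
SOX9: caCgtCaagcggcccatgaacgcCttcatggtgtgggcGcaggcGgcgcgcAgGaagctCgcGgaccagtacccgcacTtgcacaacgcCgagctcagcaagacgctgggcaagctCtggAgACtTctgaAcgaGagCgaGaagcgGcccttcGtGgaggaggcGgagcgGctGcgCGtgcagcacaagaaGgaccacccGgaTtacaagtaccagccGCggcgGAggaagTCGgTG
SOX10: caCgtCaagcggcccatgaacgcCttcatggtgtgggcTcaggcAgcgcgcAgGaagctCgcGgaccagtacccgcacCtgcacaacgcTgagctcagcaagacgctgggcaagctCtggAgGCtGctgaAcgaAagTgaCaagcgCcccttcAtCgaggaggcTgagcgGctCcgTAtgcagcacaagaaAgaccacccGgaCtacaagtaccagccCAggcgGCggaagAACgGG

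Of the 237 bases, 197 (83.1%) were shared by all 3 genes. Of the 31-base sequences in the exons of a member, at most 30 also occurred in another member, so that few reads could have been placed in the wrong SOX gene. The share of such sequences that occur more than once in the assembly was highest for SOX2 (7.41%) and SOX13 (6.95%), whose levels are therefore less certain, and was at most 2.58% in the other 8 genes.

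SOX4, SOX9, SOX11 and SOX12 made up nearly all SOX RNA. Levels of different genes are compared per length, as FPKM, the CPM value divided by the exon length in kilobases. In the parental libraries SOX4 had 61.1 and 63.8 FPKM and SOX9 61.3 and 62.4 FPKM, which overlap. SOX12 followed with 21.5 and 23.0 FPKM and SOX11 with 15.4 and 15.0 FPKM. SOX13, SOX2 and SOX5 lay between 0.676 and 1.71 FPKM in parental cells, SOX6 at 0.0532 and 0.0615 FPKM, and SOX8 and SOX10 at or near 0. In the overexpression libraries SOX4 still led, at 75.4 and 77.1 FPKM, but SOX11 (31.5 and 32.7 FPKM) and SOX12 (31.1 and 30.7 FPKM) now both stood above SOX9 (29.0 and 22.9 FPKM). In the KD control libraries SOX9 (115 and 111 FPKM) and SOX4 (105 and 111 FPKM) led and overlapped, and with knockdown SOX9 (129 and 126 FPKM) lay above SOX4 (111 and 120 FPKM). SOX11 was below SOX12 in both libraries of the parental, KD control and knockdown groups.

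**Figure D1:**
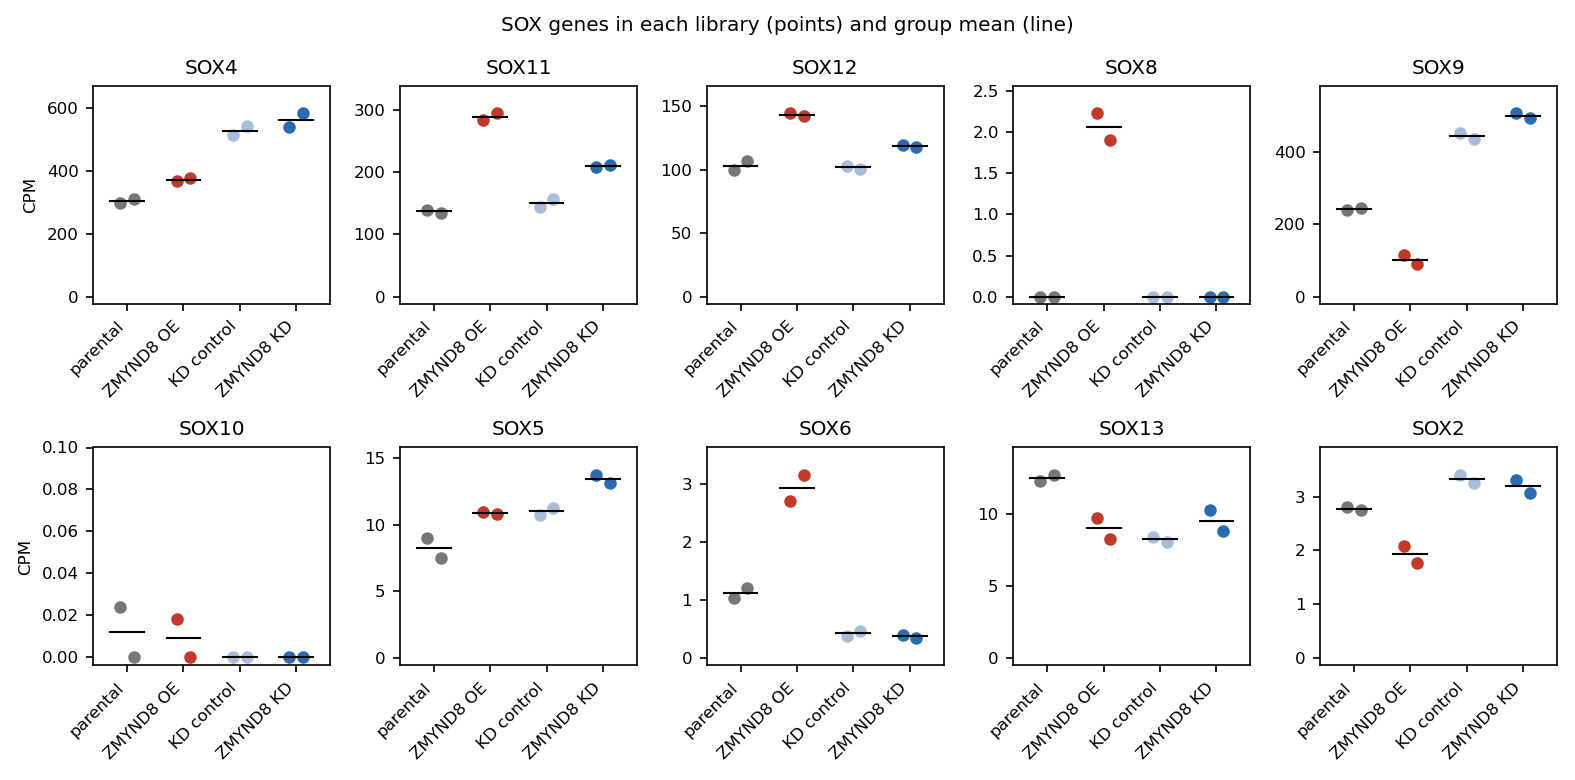
CPM (vertical axes, each starting near 0) of the 10 SOX genes in the 8 libraries. Points are libraries and lines are means of 2. SOX8 was counted only with overexpression, SOX9 was lowest there, and the 2 experiments differed in the level of SOX4, SOX6 and SOX9 already in their controls.

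Of the summed FPKM of the 10 genes, SOX9 made up 37.6% and 37.2% in parental cells, 17% and 13.7% with overexpression, 44% and 41.9% in KD control cells and 44.1% and 42.2% with knockdown. The group C share was 60.2% and 60.7% in parental cells and 80.8% and 84.2% with overexpression. The sum itself was much the same in these groups, at 163 and 168 FPKM in parental cells and 171 and 167 FPKM with overexpression, so that the make-up of the family differed more than its total. In the knockdown experiment the group C share was 54.7% and 56.8% in controls and 54.6% and 56.6% in knockdown, and these ranges overlap. The ratio of SOX11 to SOX9 in FPKM was 0.252 and 0.240 in the parental, 1.09 and 1.43 with overexpression, 0.139 and 0.157 in KD control cells and 0.180 and 0.186 with knockdown.

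**Figure D2:**
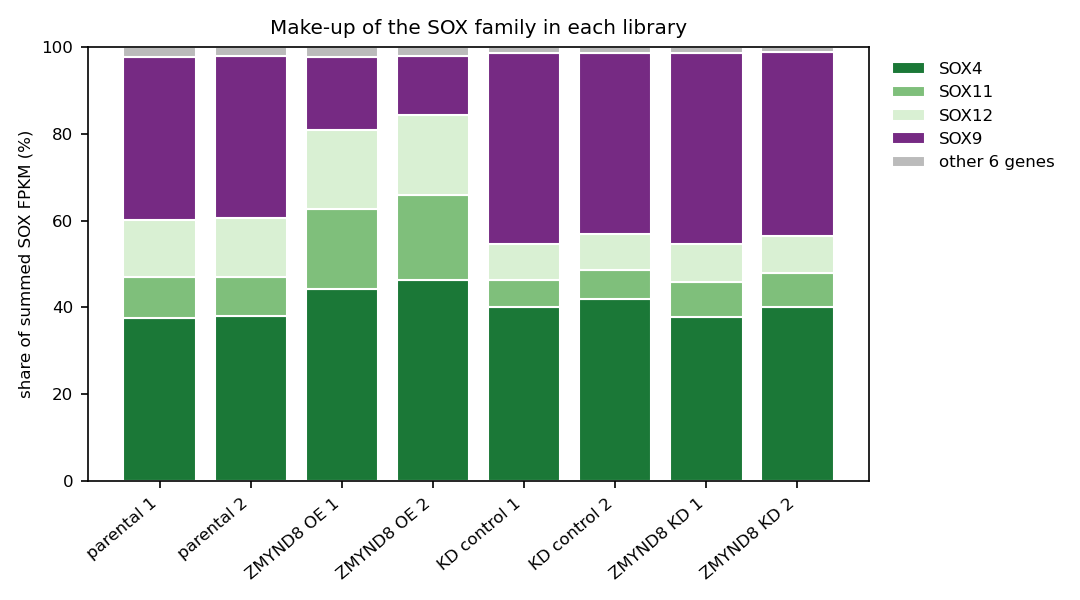
Share of the summed FPKM of the 10 SOX genes (vertical axis, percent) in each library. Bars stack SOX4, SOX11, SOX12, SOX9 and the other 6 genes. The SOX9 segment is 17% and 13.7% with overexpression and 37.2% or more in the other 6 libraries.

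The first comparison asked what ectopic ZMYND8 did to these genes under ATRA. SOX11 and SOX6 rose, SOX8 went from no counts to 124 and 88, and SOX9 fell. A gene was called at an adjusted p below 0.05 in the quasi-likelihood test of edgeR, after Benjamini-Hochberg adjustment over all genes, a log2 fold change of 1 or more in either direction and more than 20 normalized counts on average. Of 9 SOX genes tested, 4 were called, against 18.6% of all genes tested. Of these, 3 were higher, against 11.8% of all genes, and 1 was lower, against 6.84%. By the adjusted p alone 8 of the 9 passed, against 60.8% of all genes. Libraries of the groups did not overlap in any of the 9, but this was so for 80.9% of all genes. SOX8, without parental counts, passed the count filter only through the overexpression libraries, so its part in these counts was fixed beforehand. Leaving SOX8 aside, SOX11 and SOX6 were called higher and SOX9 lower. The median log2 fold change of the 9 was 0.49, against 0.03 over all genes. In such bulk RNA, fewer cells of a type and less RNA per cell cannot be told apart.

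In group C, SOX11 (chromosome 2, 5692384 to 5701385 of GRCh38), a factor of immature sympathetic neurons and of neuroblastoma, had 139 and 135 CPM in parental cells and 284 and 294 CPM with overexpression. Each overexpression library held about as much again as the higher parental one. Its log2 fold change was 1.17 (SE 0.050, edgeR adjusted p = 1.19e-08), a 2.25-fold rise. SOX4, which promotes survival and differentiation of neuronal precursors and lies on chromosome 6 from 21593751 to 21598619, had 298 and 311 CPM in parental cells and 367 and 376 CPM with overexpression. The groups did not overlap, but the rise was small, a shift in log2 of 0.38 (SE 0.049, edgeR adjusted p = 5.99e-05). SOX12, on chromosome 20 from 325595 to 330224, rose from 99.4 and 107 CPM to 144 and 142 CPM. Its log2 fold change was 0.56 (SE 0.051, edgeR adjusted p = 3.80e-06). With the dependence of fold changes on gene length and GC removed, SOX12 was 0.24 and SOX4 0.23 higher on the log2 scale, both still past the adjusted p, while SOX11 was 1.13 higher. Of SOX4 exon bases, 3.45% overlap another gene on the opposite strand, and the strand setting of the counting is not given in the sources used here.

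Promoters are shown for SOX4 and SOX12, which rose together, as the 250 bases before the RefSeq start on GRCh38.p14, at chr6:21593501-21593750 and chr20:325302-325551, both on the plus strand. Capitals mark CCAAT, or ATTGG where it lies on the other strand.
SOX4 promoter: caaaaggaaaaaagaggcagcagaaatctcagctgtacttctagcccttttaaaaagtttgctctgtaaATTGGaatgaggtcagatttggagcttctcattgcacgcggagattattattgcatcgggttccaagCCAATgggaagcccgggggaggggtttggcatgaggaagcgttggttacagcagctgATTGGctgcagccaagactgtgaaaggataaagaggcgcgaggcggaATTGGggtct
SOX12 promoter: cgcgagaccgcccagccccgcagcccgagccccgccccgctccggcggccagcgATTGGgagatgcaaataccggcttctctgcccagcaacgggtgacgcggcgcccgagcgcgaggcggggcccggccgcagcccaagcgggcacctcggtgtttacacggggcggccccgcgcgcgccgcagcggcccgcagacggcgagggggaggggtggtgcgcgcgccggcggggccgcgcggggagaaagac

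The SOX4 promoter held 4 such matches, starting at -181, -114, -57 and -10 from the start, and that of SOX12 held 1 at -196. Of all 35116 promoters of this length in the table, 32.0% held at least 1. The GC content was 48.8% for SOX4 and 79.2% for SOX12, against a median of 58.0% of all promoters. GGGCGG, the GC box, matched 3 times on either strand in SOX12 and not in SOX4, and 42.6% of all promoters held it. Of the members, 6 had an entry in this table, and SOX8, SOX9, SOX10 and SOX11 had none. TATAAA was in none of the 6, against 10.7% of all promoters, and AGGTCA, the half-site of nuclear receptors such as those for retinoids, was in SOX2 and SOX4, against 12.1%. A match describes letters only.

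In group E, SOX9 (chromosome 17, 72121020 to 72126416), which specifies neural crest, glia and cartilage, had 241 and 245 CPM in parental cells and 114 and 90.0 CPM with overexpression. Both overexpression libraries lay far below both parental ones. The log2 fold change was -1.16 (SE 0.087, edgeR adjusted p = 8.90e-07), a 2.23-fold fall, and it was -1.0 without the lower overexpression library. SOX8 (chromosome 16, 981770 to 986979), a related factor of crest and oligodendrocytes, had 0 counts in either parental library and 124 and 88 with overexpression, or 2.23 and 1.91 CPM. It was at least 31-fold higher, taking 3 counts as the limit that a count of 0 allows in each parental library, and its adjusted p was 7.45e-07 in edgeR. In FPKM it remained far below SOX9, at 0.498 and 0.426. SOX10, the main factor of Schwann cell precursors and melanocytes on chromosome 22 from 37970686 to 37987422, had 1 count in 1 parental and in 1 overexpression library and 0 in the other 6 libraries, too few to test, and this allows a level of up to 0.0650 CPM in a library with no count.

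In group D, SOX6 (chromosome 11, 15966449 to 16739591), a modulator of cartilage, oligodendrocyte and neuron development, had 44 and 61 counts in parental cells and 151 and 146 with overexpression. These were 1.05 and 1.21 CPM against 2.71 and 3.16 CPM, without overlap. The log2 fold change was 1.47 (SE 0.20, edgeR adjusted p = 9.50e-05). SOX5, its close relative on chromosome 12 from 23529504 to 24562544, had 9.02 and 7.48 CPM in parental cells and 11 and 10.8 CPM with overexpression, a log2 fold change of 0.49 (SE 0.11, edgeR adjusted p = 3.38e-03). The ratio of SOX6 to SOX5 in FPKM was 0.0652 and 0.0909 in parental cells and 0.139 and 0.165 with overexpression, so that SOX6 gained on SOX5 but remained the minor of the pair. SOX13 on chromosome 1 from 204073115 to 204127743 fell from 12.3 and 12.7 CPM to 9.75 and 8.25 CPM, by 0.38 on the log2 scale (SE 0.10, edgeR adjusted p = 9.46e-03). Without overexpression replicate 2 the SOX13 value was -0.27 with an adjusted p of 0.0522 in edgeR, and with the length and GC trends removed it was -0.62.

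SOX2, in group B1, a factor of pluripotent and neural stem cells on chromosome 3 from 181711925 to 181714436, had 2.80 and 2.75 CPM in parental cells and 2.08 and 1.78 CPM with overexpression. The libraries did not overlap, but the log2 fold change of -0.43 (SE 0.18) did not pass the test (adjusted p = 0.0594 in edgeR). It passed with the length and GC trends removed (-0.56, adjusted p = 0.0195 in edgeR), with the length trend alone removed (adjusted p = 0.0405) and with all 8 libraries in 1 fit (adjusted p = 0.0337). It did not pass in DESeq2 (adjusted p = 0.266). In edgeR it did not pass with upper quartile scaling (adjusted p = 0.114), no filter (0.0788), the replicate block (0.0615) or RLE scaling (0.0548). The log2 fold change was -0.33 without overexpression replicate 2 and -0.54 without replicate 1.

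The second comparison asked what less ZMYND8 did. None of 8 SOX genes tested was called in edgeR, against 1.96% of all genes, and 4 had an unadjusted p below 0.05 that also held after adjustment. These 4, SOX11, SOX12, SOX9 and SOX5, were all slightly higher with knockdown. By adjusted p alone, 24.3% of all genes passed and 13.4% passed and were higher. DESeq2 called 0 as well. The groups did not overlap in 5 of the 8 genes, against 61.5% of all genes. The median log2 fold change of the 8 genes was 0.19, against -0.01 over all genes.

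SOX11 had 145 and 157 CPM in KD control cells and 208 and 211 CPM with knockdown, without overlap. It was higher by 0.48 on the log2 scale (SE 0.054, edgeR adjusted p = 1.41e-04), and it passed under every alternative run. Its direction in knockdown was thus the same as in overexpression. SOX12 had 103 and 101 CPM in KD control cells and 119 and 118 CPM with knockdown, a log2 fold change of 0.22 (SE 0.048, edgeR adjusted p = 7.37e-03). This was lost without KD control replicate 2 (adjusted p = 0.0699 in edgeR).

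SOX9 had 454 and 436 CPM in KD control cells and 507 and 494 CPM with knockdown, a log2 fold change of 0.17 (SE 0.052, edgeR adjusted p = 0.0337). SOX5 had 10.7 and 11.3 CPM in KD control cells and 13.7 and 13.2 CPM with knockdown, a log2 fold change of 0.29 (SE 0.090, edgeR adjusted p = 0.0397). The groups did not overlap in either gene. Leaving out a library took the adjusted p of SOX5 to between 0.0604 and 0.180 in edgeR, and DESeq2 gave 0.0793. For SOX9 it was 0.212 without KD control replicate 2, 0.148 without knockdown replicate 1, 0.0770 without KD control replicate 1, and 0.134 with all 8 libraries in 1 fit.

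SOX4 had 512 and 542 CPM in KD control cells and 539 and 582 CPM with knockdown, which overlap (log2 fold change 0.09, SE 0.058). SOX13 had 8.4 and 8.08 against 10.3 and 8.82 CPM, without overlap (log2 fold change 0.21, SE 0.11, adjusted p = 0.197 in edgeR). SOX2 had 3.40 and 3.26 against 3.31 and 3.07 CPM (log2 fold change -0.06, SE 0.15), and SOX6 had 20 and 26 against 21 and 18 counts (log2 fold change -0.19, SE 0.34). SOX2 and SOX6 overlapped between the groups. None of these 4 passed. SOX8 and SOX10 had 0 counts in all 4 libraries of the knockdown experiment and could not be tested there.

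**Figure D3:**
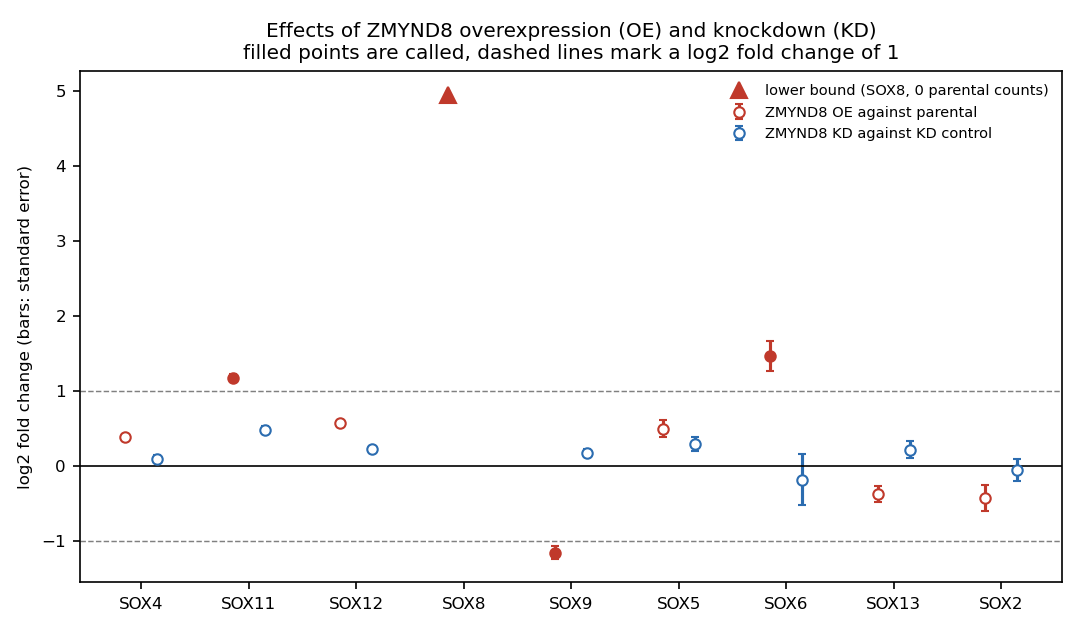
Log2 fold change (vertical axis) of 9 SOX genes in overexpression against parental and knockdown against KD control. Bars are standard errors, filled points are called, and the triangle for SOX8 is a lower bound against 3 counts. SOX9 lies at -1.16 in overexpression and 0.17 in knockdown, and SOX11 is above 0 in both.

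The difference of the effects was tested in a model of all 8 libraries, as the overexpression effect minus the knockdown effect. Of 8 SOX genes with an estimate, SOX9 and SOX6 were called, against 18.8% of all genes. The difference was -1.34 for SOX9 (SE 0.11, edgeR adjusted p = 9.08e-08) and 1.65 for SOX6 (SE 0.36, edgeR adjusted p = 1.63e-03) on the log2 scale. The SOX9 effect was -1.16 in overexpression and 0.17 in knockdown, both log2, so the 2 had opposite signs. The group C genes had smaller differences that passed the adjusted p, of 0.68 for SOX11 (adjusted p = 2.48e-06), 0.34 for SOX12 (adjusted p = 8.54e-04) and 0.28 for SOX4 (adjusted p = 7.29e-03), all in edgeR. SOX13 differed by -0.60 (adjusted p = 5.20e-03 in edgeR). The differences for SOX5 (0.20, SE 0.15) and SOX2 (-0.37, SE 0.22) did not pass. SOX8 had no counts in 3 of the 4 groups, and edgeR gave no usable error for it, while DESeq2 called it.

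The 2 control groups were also set against each other, KD control against parental. They differ in the experiment, in Dox and in what the cells carry, which cannot be told apart. SOX6 was called, the only one of 9 genes tested, of which SOX8 had no counts in these groups, against 20.3% of all genes, at 0.384 and 0.476 CPM in KD control cells and a log2 fold change of -1.38 (SE 0.26, edgeR adjusted p = 2.55e-04). By adjusted p alone 6 of the 9 passed, against 65.0% of all genes. SOX9 was higher by 0.88 (SE 0.077) and SOX4 by 0.80 (SE 0.055) on the log2 scale in KD control cells, with adjusted p of 1.18e-07 and 8.51e-09 in edgeR. For SOX9, SOX4, SOX6, SOX5, SOX13 and SOX2 the distance between the controls was larger in size than the knockdown effect on the same gene. In SOX2 neither passed. For SOX4 and SOX13 the distance was also larger than the overexpression effect, of 0.38 and -0.38 on the log2 scale. For SOX6 it was nearly as large as the overexpression effect of 1.47. SOX11 (log2 fold change 0.14, SE 0.054), SOX5 (0.43) and SOX13 (-0.59) passed too. SOX11 did not pass without KD control replicate 2 (adjusted p = 0.276 in edgeR), parental replicate 1 (0.0541) or parental replicate 2 (0.169), nor SOX5 without parental replicate 2 (0.0524). SOX12 (-0.01, SE 0.049) and SOX2 (0.27, SE 0.16) did not.

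Other SOX genes had few reads. Of 9 further SOX genes of the family, 4 were tested in overexpression, and SOX7 and SOX18, which with SOX17 form group F of endothelial factors, were called higher. SOX7 had 55 and 64 counts in parental cells and 152 and 147 with overexpression, a log2 fold change of 1.29 (SE 0.19, edgeR adjusted p = 1.83e-04). In the KD control libraries SOX7 was already at 235 and 193 counts, and at 240 and 273 with knockdown. SOX18 had 2 and 3 counts in parental cells and 55 and 24 with overexpression, a ratio of 14.4 with an exact 95% counting interval of 5.91 to 45.5. Its mean of 20.1 lay just above the minimum, and it was not called in DESeq2 or without either overexpression library. SOX15 (16 and 28 against 10 and 4 counts) and SOX30 (22 and 33 against 17 and 7 counts) had a mean below 20 and were not called, though both fell past the adjusted p in edgeR (log2 fold change -1.68, adjusted p = 0.0104, and -1.24, adjusted p = 0.0206). Both were called lower with all 8 libraries in 1 fit, where SOX18 was not called, and SOX30 also without overexpression replicate 1. SOX1, SOX14 and SOX21 had 0 counts in all 8 libraries, and SOX3 and SOX17 had at most 10. Among the TCF and LEF factors, relatives with an HMG box that act in WNT signalling, LEF1 was called higher in overexpression (log2 fold change 2.70, SE 0.44, adjusted p = 3.47e-04 in edgeR) at 1.40 and 0.823 CPM, and the other 3 were not called. In KD control cells LEF1 was at 6.73 and 5.90 CPM, above its level with overexpression. This LEF1 call was lost without overexpression replicate 1.

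Lists of genes that SOX factors are known to act with or on, or that mark related cell types, were then counted. Each is to be read against the 11.8% called higher and 6.84% called lower among all genes in overexpression, and a median log2 fold change of 0.03. Setting genes without parental counts at their lower bound left the median of every list as given. COL2A1, COL9A1, POU3F1 and POU3F3 below, like SOX18 above, passed the count filter only through the overexpression libraries. Their direction in these counts was thus fixed beforehand. S100B below and LEF1 above also needed the overexpression libraries to pass, so the filter favoured a rise in them. The cartilage list holds collagens and matrix genes known as targets of the trio of SOX9, SOX5 and SOX6. Of 12 genes, 9 were tested, 6 were called higher in overexpression and 0 lower. Their median log2 fold change was 1.65. COL2A1, the main cartilage collagen and a classic SOX9 target, had 0 counts in either parental library and 126 and 122 with overexpression, at least 37-fold higher. COL9A1, which encodes a collagen on the surface of cartilage fibrils, had 4 and 1 against 93 and 77 counts (log2 fold change 4.97, SE 0.43, adjusted p = 3.08e-06 in edgeR). COMP, a cartilage matrix protein, had 336 and 385 against 2128 and 1698 counts (log2 fold change 2.36, SE 0.073, adjusted p = 1.16e-09 in edgeR). These 6 genes rose in the libraries in which SOX9 fell and SOX6 and SOX8 rose. In knockdown 5 were tested, and COL11A1 was called, from 2860 and 3236 to 8339 and 8480 counts, a log2 fold change of 1.51 (SE 0.054, edgeR adjusted p = 2.30e-07). COL11A1 was thus higher in knockdown and in overexpression, each against its own control. Its 55.0 and 59.3 CPM in KD control cells lay further from the parental 7.24 and 6.55 CPM than the 14.1 and 14.9 CPM with overexpression did.

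Of 15 Schwann cell and glial genes, 12 were tested in overexpression, 3 were called higher and 1 lower, with a median log2 fold change of 0.61. POU3F1, a factor of promyelinating Schwann cells, had 0 and 2 counts in parental cells and 45 and 52 with overexpression, a ratio of 44.1 (exact 95% counting interval 11.9 to 369). This POU3F1 call was lost without either overexpression library and with all 8 libraries in 1 fit. S100B rose by 3.14 (SE 0.28, edgeR adjusted p = 4.11e-06) and ERBB3, a neuregulin receptor and SOX10 target, by 2.58 (SE 0.23, edgeR adjusted p = 3.25e-06), both log2. S100B had 2.15 and 1.78 CPM in KD control cells too, near its 1.90 and 2.25 CPM with overexpression. ERBB3 had 0.346 and 0.366 CPM in KD control cells, below its parental 0.641 and 1.11 CPM. MBP, a myelin protein gene, fell by 1.62 on the log2 scale (SE 0.090, edgeR adjusted p = 8.50e-08). Defining glial genes were at or near 0, as FABP7 had at most 1 count and CDH19 at most 2 in any library, and SOX10 at most 1. In knockdown 9 were tested and none called in edgeR, with 3 past an adjusted p of 0.05, all higher.

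Group C factors are known to activate some genes of early neurons. Of 11 such genes, 10 were tested, and 6 were called higher and 0 lower in overexpression, with a median log2 fold change of 2.36. The largest were ELAVL3 (5.11), NEFL (4.66) and DCX (4.14). DCX, a microtubule protein of migrating neurons, had 12.9 and 13.1 CPM in parental cells and 201 and 229 CPM with overexpression, but also 167 and 197 CPM in KD control cells, where SOX11 was at 145 and 157 CPM. In KD control cells DCX was far above its parental level and SOX11 was near its own. Whether SOX11 bears on DCX was not tested. ELAVL3 had 79.6 and 84.9 CPM in KD control cells, against 2.87 and 3.72 CPM in parental cells. NEFL had 165 and 177 CPM in KD control cells, against 7.79 and 7.16 CPM in parental cells. In knockdown 9 were tested and none called, with a median of -0.14, but 2 passed the adjusted p, both lower. These were NEFL (log2 fold change -0.39, edgeR adjusted p = 2.17e-03) and ELAVL3 (-0.33, edgeR adjusted p = 2.21e-03). Of 8 sympathetic neuroblast markers, 7 were tested and 4 were called higher in overexpression, among them GATA2 (4.0) and DBH (2.25), both log2. GATA2 had 170 and 184 CPM in KD control cells, against 22.6 and 22.4 in parental cells and 333 and 343 with overexpression. DBH had 37.15 and 43.09 CPM in KD control cells, above its 28.69 and 28.85 with overexpression. In knockdown 0 of 7 were called, but 4 passed the adjusted p, all lower. Among these were DBH (log2 fold change -0.86, edgeR adjusted p = 1.02e-04) and GATA2 (-0.51, edgeR adjusted p = 2.51e-04).

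Of 12 neural crest specifiers, 10 were tested in overexpression and 2 were called higher, TFAP2B (log2 fold change 3.56) and TWIST1 (1.31), and 0 lower. TFAP2B had 55.3 and 71.0 CPM in KD control cells, against 6.7 and 7.22 in parental cells and 69.9 and 84.5 with overexpression. TWIST1 had 157.5 and 171.9 CPM in KD control cells, against 85.3 and 84.4 in parental cells and 196 and 198 with overexpression. In knockdown 0 of 8 were called, and by adjusted p alone 1 was higher and 2 were lower. Of 11 neural stem cell and pluripotency genes, 7 were tested and 3 called higher, MSI1 (log2 fold change 3.59), HES1 (1.46) and POU3F3, which had at most 1 count in a parental library and a ratio of 60.9 (exact 95% counting interval 16.5 to 508). The POU3F3 call was lost without overexpression replicate 1 and with all 8 libraries in 1 fit. None was called lower, but NES, an intermediate filament gene of neural progenitors and by far the most abundant of the list, fell from 577 and 582 to 345 and 352 CPM, by 0.64 on the log2 scale (SE 0.047, edgeR adjusted p = 8.06e-07). The summed level of the list went from 606 and 612 to 428 and 436 CPM. MSI1 had 17.01 and 18.32 CPM in KD control cells, against 2.445 and 2.097 in parental cells and 25.55 and 25.56 with overexpression. LIN28B was the only one of 6 called in knockdown (log2 fold change 1.22, SE 0.079, adjusted p = 3.70e-06 in edgeR). Of 6 melanocyte markers 2 were tested, and PMEL was called higher in overexpression (log2 fold change 1.34). The other, MITF, was not called (log2 fold change -0.02, adjusted p = 0.846 in edgeR). The rest had too few counts to test, with 0 for TYR and at most 1 for MLANA in any library.

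Most mesenchymal markers fell in the libraries in which SOX9 fell. Of 9, all were tested, 7 were called lower and 0 higher, with a median log2 fold change of -1.75, led by CD44 (-2.55), PRRX1 (-2.39) and COL1A2 (-1.96). Their summed level was 9637 and 10310 CPM in parental cells and 3286 and 3042 CPM with overexpression. It was 4788 and 4634 CPM in KD control cells and 6289 and 5882 CPM with knockdown. In knockdown 0 of 9 genes were called, and by adjusted p alone 5 were higher and 2 lower. The sum was lower in KD control than in parental cells, and SOX9 was higher. COL1A1, VIM, FN1 and PRRX1 carry the sum. These genes, YAP1 and COL1A2 were lower in both KD control libraries than in both parental ones, and CD44, FOSL1 and SNAI2 were higher. With knockdown PRRX1 went against the sum, from 131 and 131 to 67.2 and 65.3 CPM (log2 fold change -0.98, SE 0.049, adjusted p = 8.13e-07 in edgeR), just short of the fold threshold. It was called lower without knockdown replicate 1 and with the length trend, or the length and GC trends, removed. The part of the mesenchymal genes in the SOX9 result was not tested. Where no gene of a list was called in knockdown, DESeq2 called none either, and an unadjusted edgeR p below 0.05 was found for 3 glial, 3 early neuron, 4 neuroblast, 5 neural crest, 1 melanocyte and 8 mesenchymal genes, 1 of the other SOX genes and 3 of the TCF and LEF genes.

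**Figure D4:**
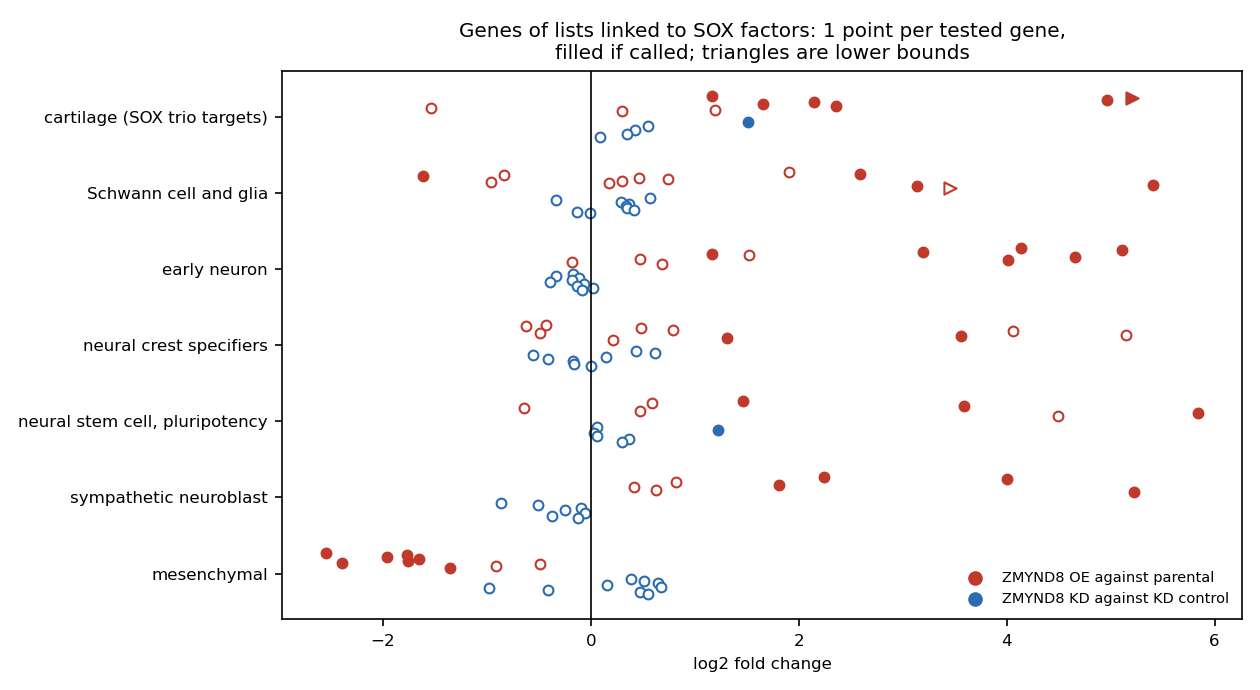
Log2 fold change (horizontal axis) of each tested gene of 7 lists, in overexpression against parental and knockdown against KD control. Filled points are called, and triangles are lower bounds for genes without parental counts. Of the cartilage genes 6 are called higher, and of the mesenchymal genes 7 are called lower, in overexpression.

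Genes within 500 kb of a SOX member were counted next. Of 299 such genes, 127 were tested in overexpression, with 14 called higher and 6 lower, close to the shares among all genes, and 116 in knockdown, with 1 higher and 1 lower. Some of those called higher, among them SILC1 and SSTR5-AS1 below, passed the count filter only through the overexpression libraries, which fixed their direction beforehand. ENSG00000230090 below needed those libraries to pass too, so the filter favoured a rise in it. CASC15, a long noncoding RNA (lncRNA) gene that starts 65.6 kb from SOX4, had 1002 and 1236 counts in parental cells and 2762 and 2539 with overexpression (log2 fold change 1.21, SE 0.067, adjusted p = 8.45e-08 in edgeR), a larger change than that of SOX4. In KD control cells CASC15 had 3032 and 3592 counts, above those with overexpression, and with knockdown it had 3149 and 3315. LINC00511, 163.7 kb from SOX9, fell with it, from 318 and 429 to 195 and 141 counts (log2 fold change -1.20, SE 0.13, adjusted p = 1.95e-05 in edgeR). In the knockdown experiment LINC00511 was not called, at 948 and 1048 against 1439 and 1265 counts.

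Near SOX11, the lncRNA gene SILC1 was at 2 counts in each parental library but at 213 and 183 with overexpression, a ratio of 90.1 (exact 95% counting interval 34.9 to 332). It lies 231.2 kb from SOX11, and SILC1 had 34 and 63 counts in KD control cells and 54 and 57 with knockdown. ENSG00000230090, 1.3 kb from SOX11, had 8 and 23 against 41 and 42 counts (log2 fold change 1.39, SE 0.38, adjusted p = 9.28e-03 in edgeR). NRSN2-AS1 spans SOX12 on the opposite strand without sharing an exon base and rose from 637 and 732 to 1601 and 1378 counts (log2 fold change 1.08, SE 0.071, adjusted p = 3.26e-07 in edgeR). In knockdown NRSN2-AS1 had 349 and 314 counts against 415 and 454 in KD control cells.

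SSTR5-AS1, 77.1 kb from SOX8, had the same pattern as SOX8, with 0 counts in the other 6 libraries and 51 and 41 with overexpression, at least 13-fold higher. Another lncRNA gene, ENSG00000228201, at 332.6 kb from SOX8, had 15 and 14 against 36 and 35 counts (log2 fold change 1.24, SE 0.33, adjusted p = 7.56e-03 in edgeR). In all, 6 of the 51 tested neighbours of SOX8 were called higher, the same share as the 11.8% of all genes, and 1 lower in overexpression. No lncRNA gene near SOX2, SOX5, SOX6, SOX10 or SOX13 was called.

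Over the 8 libraries, the genes most like SOX6 among 13546 with a mean above 100 were ADAM11, TP53I11 and EPOR. Their centred log2 CPM differed from that of SOX6 by a root mean square of 0.10, 0.14 and 0.14. ADAM11 had 2.61 and 3.25 CPM in the parental, 6.81 and 8.30 with overexpression, 1.06 and 1.14 in KD control cells and 1.22 and 1.11 CPM with knockdown. The genes most like SOX9 were SLC7A5, ZNF469 and PHLDB2, with a root mean square of 0.10, 0.11 and 0.11. SLC7A5, an amino acid transporter gene, had 276 and 295 CPM in the parental, 127 and 89.4 with overexpression, 552 and 479 in KD control cells and 581 and 506 CPM with knockdown. The likeness was taken over all 8 libraries, so it includes the distance between the 2 experiments.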

How the data were processed

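The 8 RNA libraries came from SK-N-SH cells, 2 per group, and were grouped by the treatments in the labels. The authors deposited counts, unnormalized whole numbers of reads for each gene. The methods name Trim_Galore for trimming, a Phred minimum of 25, Hisat2 for alignment to GRCh38 and featureCounts with GENCODE release 28 for counting. The strand setting is not given in the sources used here. Of 60662 lines, 3 belonging to 1 split gene were left out. Symbols came from GENCODE release 44 for 60418 of 60659 genes. The table also gives each gene's exon length, used for FPKM.

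Counts were filtered with filterByExpr, scaled with TMM and put through the two-sided quasi-likelihood test of edgeR (version 4.0.16, on R 4.3.3 with limma 3.58.1), each comparison on its own 4 libraries, and the difference of effects and the control comparison on all 8. The standard error is the absolute log2 fold change divided by the square root of the F statistic. A call needed a Benjamini-Hochberg adjusted p below 0.05, a log2 fold change of 1 or more in either direction and over 20 normalized counts on average; the methods give a plain p-value, the same minimum and a 1-fold change, read here as 1 on the log2 scale. Bounds and intervals cover counting error only. Replicates differed by more than counting noise (chi-square per degree of freedom 5.52 to 7.97), and p-values measure the spread between the 2 biological replicates that the labels state.

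The members, gene lists and tests were chosen with earlier results of these data known. Named are all members, the other SOX genes, in each list the called genes with the largest change (up to 3 per direction in overexpression, 2 in knockdown), called lncRNA genes within 500 kb of a member (up to 3 per member), and the 3 genes most like SOX6 and SOX9, the members with the largest called rise and fall at a mean above 100, by log2(CPM + 0.1) centred over the libraries. FABP7, CDH19, NES, MITF, TYR, MLANA and the mesenchymal genes named between the controls were named after their values were seen. One gene that the rule names and some sequences are not reported here. Alternatives were RLE and upper quartile scaling, DESeq2 (version 1.42.0), no filter, other thresholds, the replicate block, length and GC trends taken out by loess (span 0.5), all 8 libraries in 1 fit, and each library left out. The fits were tested on simulated counts.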

Additional observations from a re-analysis of the deposited data

How the results depend on the processing

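The samples give only 2 libraries per group, and genes with few counts such as SOX8, SOX6 and SOX18 rest on the least depth. In overexpression 4 SOX genes were called under every alternative but 2, namely 8 without a threshold on fold change and 3 (without SOX8) at a mean above 100. In knockdown the count went from 0 to 4 without the fold threshold. For the difference of effects it went from 2 to 6 without that threshold, to 1 at a mean above 100 and to 3 in DESeq2. For KD control against parental it went from 1 to 6 and to 0. Leaving out any library left 4, 0, 2 and 1 called.

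With the replicate block the counts were 4, 0, 2 and 1 too, and it changed no side of the adjusted p for any member. Deviations of same-numbered libraries correlated at 0.058 and 0.14 over 2 pairs, and the labels tie no number to a batch. Among values of single members, 104 in each comparison, none reversed in overexpression, knockdown or the difference. In KD control against parental SOX12 (-0.01) reversed, to 0.0468 under upper quartile scaling, and ranged from -0.0547 to 0.0382 with each library left out (0.0057 without KD control replicate 2, 0.0382 without parental replicate 2). The adjusted p crossed 0.05 in 5 cases in overexpression (SOX2 and SOX13), 15 in knockdown (SOX5, SOX9 and SOX12) and 4 between the controls. These causes were not tested.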
